A study of Mus musculus with 16 samples.

Results

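Plasma lipoproteins are particles of lipid held together by apolipoproteins, and the liver makes most of them. The set described here holds the 9 apolipoprotein genes Apoa1, Apoa2, Apoa4, Apoa5, Apob, Apoc1, Apoc2, Apoc3 and Apoe, and Mttp, which encodes the microsomal triglyceride transfer protein. Members were chosen by gene symbol, and 10 of the 22322 genes in the deposited tables belong to the set. The genes came from mouse liver and white adipose tissue, profiled by sequencing of poly(A)-selected RNA.

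The animals were DIO mice (in metabolic research this stands for diet-induced obesity) injected intraperitoneally with vehicle or with halofuginone (100 μg/kg) at intervals of 2 days, and tissues were taken after 8 weeks. Halofuginone inhibits prolyl-tRNA synthetase. The vehicle libraries carry the label HFD and the halofuginone libraries the label H100, so both groups are DIO animals and no lean group enters a comparison. Liver had 5 libraries in each group and white fat had 3 in each. The labels give no strain, sex or age, they do not name the fat depot, and they do not say whether a library is 1 animal or whether equal numbers in liver and fat come from the same animal. P-values therefore measure the spread between these libraries.

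As background, APOB is the structural protein of very low density lipoprotein (VLDL), and MTTP loads it with triglyceride in the endoplasmic reticulum of hepatocytes. APOA1 and APOA2 are the main proteins of high density lipoprotein (HDL), and APOE is a ligand for hepatic lipoprotein receptors. The small exchangeable APOC proteins and APOA5 tune how fast triglyceride is removed from particles in the circulation: APOC2 activates lipoprotein lipase, APOC1 and APOC3 slow clearance, and APOA5 promotes it.

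In liver, edgeR called 5 of the 10 members lower with halofuginone, namely Apoc2, Apoa4, Apoa2, Apoc1 and Apoc3, and 0 higher, where 10.5% of all genes tested fell and 12.7% rose. The group means of these 5 genes under halofuginone were 44.4% to 66.4% of the vehicle means. Apoa1 averaged 46.1% of vehicle but was not called by edgeR, and 1 of its treated livers stood at the vehicle level. Apoa5 stood at 97.1% of vehicle and was the member nearest to it. In white fat, where Apoe made up nearly all of the set's RNA, edgeR called 0 members and 0 (0%) of all genes tested, while DESeq2 called 1 member, Apoa4.

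Of the members, 4 lie side by side on chromosome 9 in the order Apoa1, Apoc3, Apoa4, Apoa5, and 3 lie on chromosome 7 together with Apoc4, in the order Apoc2, Apoc4, Apoc1, Apoe (RefSeq, GRCm38.p6). Promoter windows are shown for Apoc2 and Apoa4, the called members with the largest fold changes, and for Apoa5, which directly follows Apoa4 on the chromosome and was not called. Each is the 250 bases before an annotated start in the RefSeq table for GRCm38.p6, read in the direction of transcription. That build is not the one used for the counts, mm39. Capitals mark the letters CAAAGTNCA, a form of the element that the hepatocyte factor HNF4A is known to bind.
Apoc2, chr7:19677942-19678191, minus strand: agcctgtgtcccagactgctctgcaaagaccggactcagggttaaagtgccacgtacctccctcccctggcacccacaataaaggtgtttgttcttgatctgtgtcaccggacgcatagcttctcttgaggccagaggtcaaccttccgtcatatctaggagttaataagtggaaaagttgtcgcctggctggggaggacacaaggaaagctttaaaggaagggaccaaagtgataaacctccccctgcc
Apoa4, chr9:46240594-46240843, plus strand: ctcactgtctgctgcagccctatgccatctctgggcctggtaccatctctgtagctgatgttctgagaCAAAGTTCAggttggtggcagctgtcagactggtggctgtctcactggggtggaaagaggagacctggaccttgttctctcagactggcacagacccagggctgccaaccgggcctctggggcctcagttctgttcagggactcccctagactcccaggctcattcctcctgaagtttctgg
Apoa5, chr9:46268358-46268607, plus strand: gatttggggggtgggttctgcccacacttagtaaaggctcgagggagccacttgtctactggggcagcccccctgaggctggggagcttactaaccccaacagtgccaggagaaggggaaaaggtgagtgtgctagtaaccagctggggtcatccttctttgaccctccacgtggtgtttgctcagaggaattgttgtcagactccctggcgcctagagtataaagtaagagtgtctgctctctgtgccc
Windows were found for 8 of the 10 members, 12 windows in all, and Apoc1 and Apoc3 had none in the table. Searched on both strands, CAAAGTNCA was present in 1 of the 12, that of Apoa4, where its first base lies 182 bases before the start. The same letters were present in 1.19% of all 32851 promoter windows of this length. The letters TGATGNAA, a form of the element that ATF4 is known to bind, were present in 3.45% of all windows and in 1 member window, that of Apoe. No member window held both motifs, and a match describes the sequence only.

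Liver libraries held 20309956 to 31980683 counts each, and fat libraries 17070614 to 21387799. Levels below are CPM, counts divided by library depth after scaling with edgeR's TMM factors. The lowest count of any member in any liver library was 1401, so counting error is small beside the spread between livers. One treated liver, halofuginone replicate 1, stood apart over the whole transcriptome: on the first principal component (59.3% of the variance) it scored -21.8, next to the vehicle livers (-31.9 to -24.6), while the other 4 treated livers scored 27.4 to 52.4. It is kept in the values below unless stated. Over all genes, the quasi-likelihood test of edgeR called 2850 of 12311 liver genes at a Benjamini-Hochberg adjusted p under 0.05, which is 23.2%, with 1292 lower (10.5%) and 1558 higher (12.7%). Scaling by library size alone moved the all-gene median of the log2 fold change from 0.02 to 0.17 and the split to 2789 higher and 838 lower.

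Against that background, 5 of 10 members were called lower in liver, and 10 of 10 had a log2 fold change below 0, compared with 48.3% of all genes tested; that of Apoa5 was positive under some scalings. The median log2 fold change was -0.60 over the members (-0.73 without halofuginone replicate 1) and 0.02 over all genes. DESeq2 called 8 members lower, these 5 and Apoa1, Apob and Apoe. Over all 16566 genes it called 1723 lower and 1900 higher. In 6 members every treated liver lay below every vehicle liver (Apoe, Apoa2, Apoa4, Apoc1, Apoc2 and Apoc3), an arrangement found in that direction in 6.55% of all genes. Halofuginone replicate 2 was the lowest treated liver for 10 of 10 members, and halofuginone replicate 1 was the highest for 8. The plot of liver levels by library shows this order. Together the 10 genes took up 4.03% ± 0.233 (SD, n = 5) of all counts in vehicle livers and 2.87% ± 0.596 (n = 5) in treated livers, and the 2 groups did not overlap (3.81% to 4.35% against 2.10% to 3.67%).

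**Figure D1:**
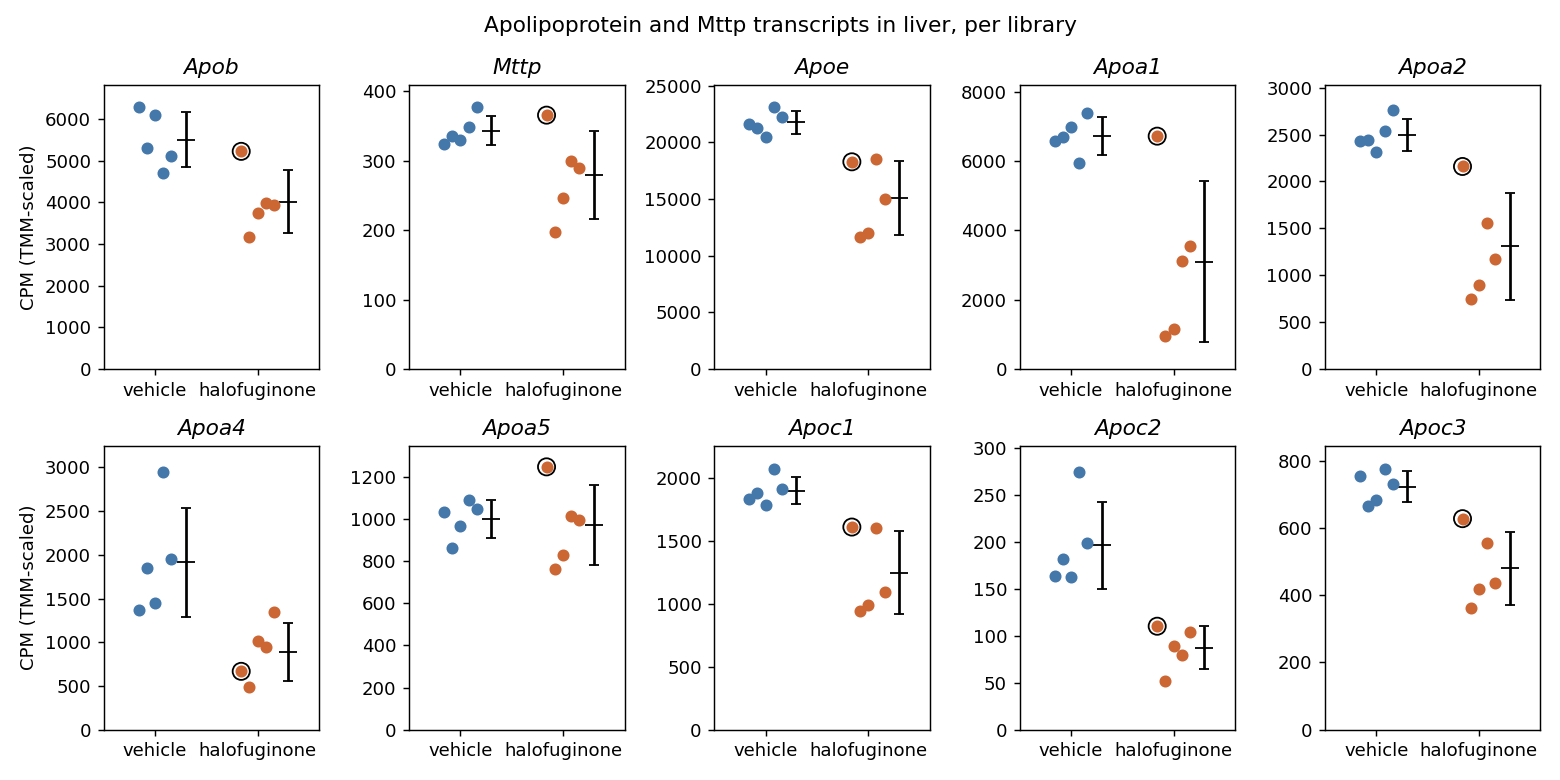
Level of each member in the 10 liver libraries, in TMM-scaled CPM on axes that start at 0; each point is a library, the bars are the mean and SD of 5 libraries per group, and a ring marks halofuginone replicate 1. Treated livers lie below all vehicle livers for Apoe, Apoa2, Apoa4, Apoc1, Apoc2 and Apoc3, and the ringed library is the highest treated one for 8 of the 10 genes.

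Apoa1 (ENSMUSG00000032083), the main protein of HDL, stood at 6571, 6698, 6972, 5930.0 and 7394 CPM in vehicle livers 1 to 5 and at 6712, 944, 1151, 3103 and 3548 CPM in treated livers 1 to 5. Treated liver 1 lay inside the vehicle range and the other 4 lay below it, livers 2 and 3 farthest. The means were 6713 ± 539.5 and 3092 ± 2329 CPM (SD, n = 5 each), and the coefficient of variation went from 8.04% in vehicle to 75.3% in treated livers, the widest of the 10 members. The log2 fold change was -1.12 ± 0.45 (SE), with an adjusted p of 0.0915 in edgeR's quasi-likelihood test. Without halofuginone replicate 1 it was -1.64, with an adjusted p of 0.00552 in the same test. With all livers kept, Apoa1 was called by DESeq2 (adjusted p = 0.0333) and by limma on log2 FPKM (-1.32, adjusted p = 0.0382 with a pseudocount of 1), but not by limma without a filter (adjusted p = 0.0812).

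Apoa2 (ENSMUSG00000005681), the other major HDL protein, stood at 2430.1, 2441, 2312, 2535 and 2757 CPM in vehicle livers and at 2159.8, 746, 896, 1558 and 1178 CPM in treated livers. All 5 treated values lay below all 5 vehicle values, the nearest being treated liver 1. Its log2 fold change was -0.93 ± 0.26 (SE; adjusted p = 0.0281, edgeR). The call was lost without any one of vehicle replicates 1, 2, 4 or 5 or halofuginone replicates 3 or 5, with adjusted p-values of 0.0511 to 0.0722. Apoa2 overlaps Tomm40l in the RefSeq annotation, and the strand used in counting is not given in the sources used here, so its reads may include some of that gene.

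Apoa4 (ENSMUSG00000032080) encodes an apolipoprotein of intestinal and hepatic origin that rides on chylomicrons and HDL. Vehicle livers held 1365, 1848, 1454, 2942 and 1955 CPM and treated livers 667, 489, 1018, 944 and 1345 CPM. The groups did not overlap, though treated liver 5 came close to vehicle liver 1. The log2 fold change was -1.10 ± 0.29 (SE; adjusted p = 0.0233, edgeR), and it lost its call only without vehicle replicate 4, the highest liver, among the fits that left out 1 library (adjusted p = 0.0535). On the FPKM scale treated liver 5 (763) exceeded vehicle liver 1 (713), so on that scale the groups overlapped.

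Among the proteins that act on lipoprotein lipase, Apoc2 (ENSMUSG00000002992), the obligate activator, had the largest fold change of the set in edgeR with all livers. That of Apoa1 was larger without halofuginone replicate 1, without vehicle replicate 4, with the replicate block and in limma on log2 FPKM. That of Apoa4 was larger without halofuginone replicate 5. For Apoc2, vehicle livers held 164, 182, 163, 274 and 199 CPM and treated livers held 110.3, 52.2, 89.3, 79.8 and 105 CPM. Every treated liver, number 1 included, was below every vehicle liver. The means were 196 ± 46.1 and 87.2 ± 23.0 CPM (SD, n = 5 each). This is -1.17 ± 0.21 on the log2 scale (SE; adjusted p = 0.00675, edgeR). Apoc2 was called in each of the 10 fits that left out 1 liver, with adjusted p-values of 0.000823 to 0.0209. The RefSeq annotation has a predicted gene, Gm44805, overlapping Apoc2, which carries the same limit on strand as Apoa2.

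Apoc3 (ENSMUSG00000032081), an inhibitor of triglyceride clearance, stood at 755, 667, 684, 776 and 731 CPM in vehicle livers and at 628, 361, 419.9, 555 and 436 CPM in treated livers. The groups did not overlap, and treated liver 1 was again the nearest to vehicle. On the log2 scale the change was -0.59 ± 0.16 (SE; adjusted p = 0.0245, edgeR). Its call was lost without vehicle replicates 1, 4 or 5 or halofuginone replicates 3 or 5, each left out alone (adjusted p 0.0510 to 0.0680).

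Apoc1 (ENSMUSG00000040564), which slows receptor uptake of remnants, stood at 1833, 1883, 1784, 2069 and 1913 CPM in vehicle livers and at 1609, 942, 987, 1604 and 1094 CPM in treated livers. Treated livers 1 and 4 lay just under the vehicle range and the other 3 well below it. The difference was -0.60 ± 0.18 on the log2 scale (SE; adjusted p = 0.0365, edgeR). This call rested on the full set of livers: it held in 2 of the 10 fits that left out 1 library, those without halofuginone replicate 1 and without halofuginone replicate 4, and was lost in the other 8, where adjusted p ran from 0.0595 to 0.0933.

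Apoa5 (ENSMUSG00000032079), which promotes lipolysis and is made almost only in liver, was not called. It stood at 1032, 864, 969, 1091 and 1051 CPM in vehicle livers and at 1249, 764, 831, 1017 and 998 CPM in treated livers. Treated liver 1 was the highest of all 10, treated livers 2 and 3 were the lowest, and the groups overlapped. In the model its log2 fold change was -0.04 ± 0.15 (SE; adjusted p = 0.858, edgeR), and its sign turned positive (0.10) when counts were scaled by library size alone, in limma on log2 FPKM (0.04), and without halofuginone replicates 2 or 3 (0.02 each).

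For the core of VLDL assembly, edgeR called neither gene with all livers, and DESeq2 called Apob (adjusted p = 0.0137). Apob (ENSMUSG00000020609) stood at 6283, 5319.8, 6092, 4717 and 5117 CPM in vehicle livers and at 5228, 3170.1, 3750.3, 3993 and 3946 CPM in treated livers. Treated liver 1 lay inside the vehicle range and the other 4 below it. The log2 fold change was -0.45 ± 0.18 (SE; adjusted p = 0.0823, edgeR). Without halofuginone replicate 1 it was -0.59 (adjusted p = 0.0122).

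Mttp (ENSMUSG00000028158) stood at 324, 336, 331, 348 and 377 CPM in vehicle livers and at 366, 197, 246, 299 and 289.8 CPM in treated livers. The picture was that of Apob, with treated liver 1 among the vehicle values and the others below them. Its log2 fold change was -0.30 ± 0.15 (SE; adjusted p = 0.175, edgeR), and -0.43 without halofuginone replicate 1 (adjusted p = 0.0205).

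Apoe (ENSMUSG00000002985), the receptor ligand and the most abundant member, stood at 21669, 21315, 20462, 23085 and 22261 CPM in vehicle livers and at 18286, 11683, 12023, 18522 and 14963 CPM in treated livers. The groups did not overlap, with treated means at 69.4% of vehicle. The edgeR model gave an adjusted p of 0.0823 for the log2 fold change of -0.53 ± 0.21 (SE), and DESeq2 gave 0.00420. Without halofuginone replicate 1 the log2 fold change was -0.63 (adjusted p = 0.0260).

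Leaving out that single liver thus raised the count of called members from 5 to 9, every member but Apoa5, while the count over all genes went from 2850 to 5312. Leaving out any other single liver gave 1275 to 1921 calls over all genes. The members' count was then 2, Apoc2 and Apoa4, without vehicle replicates 1 or 5 or halofuginone replicates 3 or 5, 3 without vehicle replicate 2, and 1, Apoc2, without vehicle replicate 4. It was 4 without vehicle replicate 3 or halofuginone replicate 2, and 5 without halofuginone replicate 4. The fold changes with and without halofuginone replicate 1 are drawn in the plot of log2 fold changes.

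**Figure D2:**
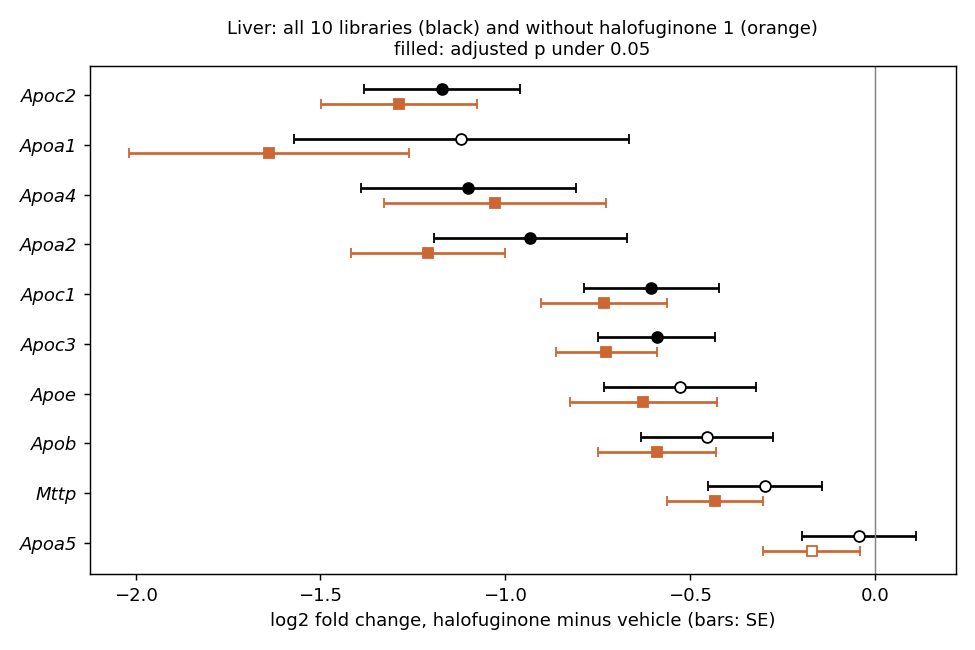
Log2 fold change in liver (halofuginone minus vehicle) of the 10 members, with all 10 libraries in black and without halofuginone replicate 1 in orange; bars are standard errors and filled symbols have an adjusted p under 0.05. With all libraries 5 symbols are filled, and without that library 9 are, with Apoa1 moving from -1.12 to -1.64 and Apoa5 staying open.

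Markers of the liver's cell types were read in the same libraries. Hepatocyte markers were abundant in all livers, and their summed level was lower in treated livers: 113158 to 132204 CPM over 7 markers in vehicle livers and 56586 to 108684 CPM in treated livers, with no overlap. Of the 7, Ttr was called lower (log2 fold change -1.17, adjusted p = 0.0217, edgeR) and Tat was called higher (1.66, adjusted p = 0.00827), while Alb, the largest part of the sum, missed the threshold (-0.86, adjusted p = 0.0742). The other 4 were not called, with log2 fold changes of 0.02 for Serpina1c, -0.04 for Cps1, 0.54 for Ahsg and 0.57 for Fgb. Without Alb the sum was 27816 to 33402 CPM in vehicle and 25965 to 46385 CPM in treated livers, which overlapped. Macrophage and Kupffer cell markers summed to 311 to 433 CPM in vehicle and 273 to 585 CPM in treated livers, with 0 of 6 called. Enterocyte markers summed to 90.5 to 99.3 CPM and 21.7 to 80.4 CPM. That sum was almost all Fabp2 (-0.97, adjusted p = 0.0247), and the defining markers Lct, Sis, Alpi and Cdh17 had at most 3 counts in every liver. The fat cell markers Adipoq, Plin1 and Lep also had at most 3 counts in every liver. Of the other adipocyte markers, Cfd was called lower (adjusted p = 9.4e-05, edgeR), at 8.02 to 30.5 CPM in vehicle livers and 0 to 0.0746 CPM in treated livers, and Cidec was not called (57.0 ± 26.5 and 21.7 ± 22.2 CPM). Of the other lists, 2 of 5 stellate cell and fibroblast markers and 1 of 3 erythrocyte markers were called lower, 2 of 4 endothelial markers were called lower and 1 higher, and 0 of 3 cholangiocyte markers were called. Summed levels of these lists overlapped between groups except for erythrocytes (117 to 196 against 64.5 to 114 CPM). The part of cell content in the members' differences was not tested, and in bulk tissue fewer hepatocytes and less of an RNA per hepatocyte cannot be told apart.

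Ratios within a library do not depend on how libraries are scaled. Per length, in the deposited FPKM, Apoa5 stood at 0.635, 0.631, 0.674, 0.651 and 0.669 times Apoc3 in vehicle livers and at 0.883, 1.00, 0.885, 0.844 and 1.03 times Apoc3 in treated livers. All 5 treated livers were above all 5 vehicle livers, and treated liver 1 was among them. The means were 0.652 ± 0.0194 and 0.928 ± 0.0813 (SD, n = 5 each), described here without a test. Apoa5 and Apoc3 have opposite known effects on triglyceride clearance and lie in the same cluster on chromosome 9.

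The other ratios overlapped between groups. Apoc2 to Apoc3, the activator against the inhibitor, was 0.228 ± 0.0439 in vehicle and 0.154 ± 0.0355 in treated livers (SD, n = 5 each). Apoa4 to Apoa1 was 0.165 ± 0.0679 and 0.249 ± 0.166, Mttp to Apob was 0.131 ± 0.0167 and 0.143 ± 0.0166, and Apoc3 to Apob was 2.04 ± 0.223 and 1.82 ± 0.267. The share of Apoa1 in the summed FPKM of the 10 genes was 15.4% to 19.8% in vehicle livers. It was 6.07%, 6.72%, 11.5% and 15.5% in treated livers 2 to 5 and 20.8% in treated liver 1. Apoe made up 43.5% ± 0.779 of that sum in vehicle and 49.8% ± 5.06 in treated livers, again with treated liver 1 (42.0%) on the vehicle side. For Apoa5 the share was 2.26% to 2.57% against 3.35% to 4.52%, and for Mttp 0.234% to 0.256% against 0.291% to 0.377%, both without overlap. Shares of 1 sum are tied, so a member lowered less than the rest gains share without a higher level. In CPM the treated mean was 97.1% of vehicle for Apoa5 and 81.4% for Mttp. How often ratios or shares of other genes separate the groups was not tested.

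**Figure D3:**
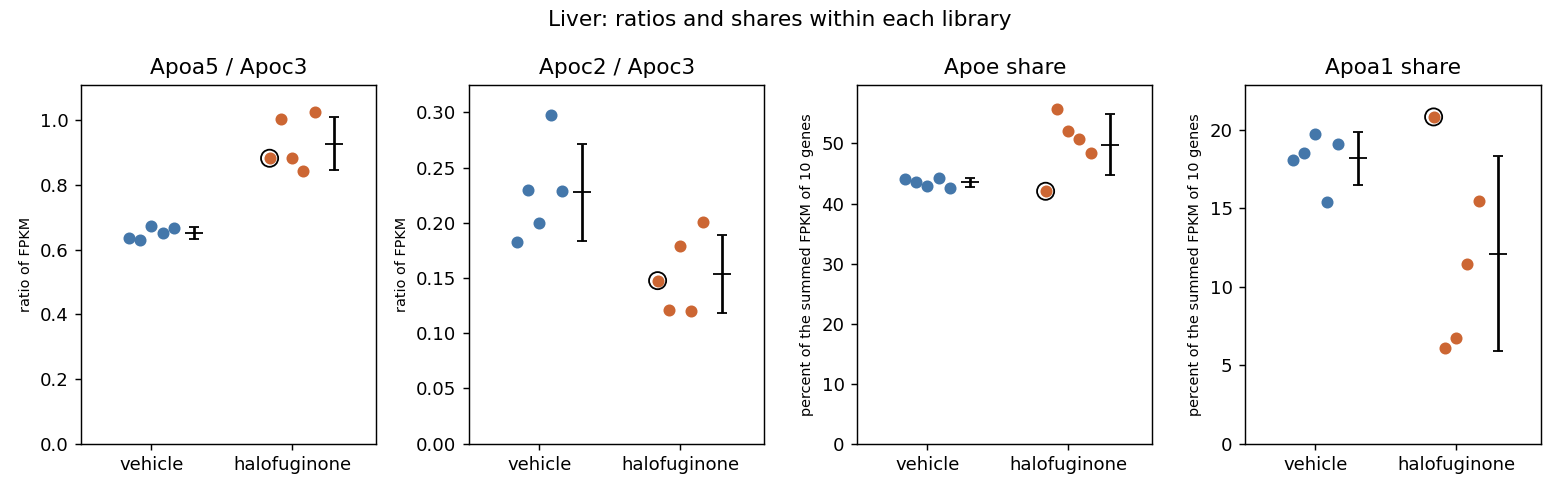
Ratios of deposited FPKM between 2 members (left) and the share of 1 member in the summed FPKM of the 10 genes in percent (right), per liver library, with the mean and SD of 5 libraries per group and a ring on halofuginone replicate 1. The Apoa5 to Apoc3 ratio separates the groups, 0.631 to 0.674 against 0.844 to 1.03, and the ringed library lies with the treated livers there. For the shares of Apoe (42.0%) and Apoa1 (20.8%) it lies just beyond the vehicle range, on the side away from the other treated livers.

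The order of levels per length changed little. By median FPKM, vehicle livers held Apoe (14699), Apoa1 (6031), Apoa2 (4592), Apoc1 (4014), Apoc3 (1313), Apoa4 (936), Apoa5 (855), Apob (659), Apoc2 (265) and Mttp (78.7). Ranges over the 5 livers overlapped for the neighbours Apoa2 and Apoc1, Apoc3 and Apoa4, and Apoa4 and Apoa5, so the order within those pairs is within their spread. In treated livers the medians were 11068, 2990.4, 2417, 2701, 935, 517, 870, 489, 167 and 75.9 for the same genes. Apoc1 then stood above Apoa2 and Apoa5 above Apoa4, both with overlapping ranges. Apoa1 also overlapped Apoc1, Apoc3 overlapped Apoa5, Apoa4 overlapped Apob and Apoc2 overlapped Mttp.

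The genes whose liver levels ran most like the 2 called members with the largest fold changes were named by Pearson's r of log2 CPM over the 10 livers, among the 8817 genes that averaged 5 CPM or more. For Apoc2 they were Ptgr2 (r = 0.98), Ndufs1 (0.97) and Trap1 (0.97), and the member most like it was Apoa4 (0.92). For Apoa4 they were Tufm (0.96), Cryz (0.96) and Prelid1 (0.95). These r values include the difference between the groups and are given as a description.

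Other genes of lipoprotein metabolism were followed in 5 lists by role, 48 genes in all, of which 47 passed the filter in liver (Apod did not). Of these, 5 fell and 1 rose, beside 23.2% of all genes called, and their median log2 fold change was -0.08. Among the 6 other apolipoproteins tested, 0 were called by edgeR and 1, Apoh, by DESeq2. In edgeR 2 of the 6 had an unadjusted p under 0.05, beside 4813 of all 12311 genes. The most abundant of them, Clu, a secreted chaperone, stood at 1647 ± 88.8 and 1630.1 ± 288 CPM (SD, n = 5 each).

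Among 12 genes of particle assembly and secretion 1 fell. Sar1b, the small GTPase of the vesicle coat that carries large lipoproteins out of the endoplasmic reticulum, went from 147 ± 11.1 to 85.4 ± 40.6 CPM (log2 fold change -0.79 ± 0.25 SE, adjusted p = 0.0414, edgeR). Treated liver 1 held 155 CPM, inside the vehicle range, and the other 4 held 52.0 to 81.2 CPM. Without it the log2 fold change was -1.14 (adjusted p = 9.7e-05, edgeR). P4hb, the partner subunit of MTTP, stood at 1342 ± 124 and 1561 ± 312 CPM and was not called.

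Of 9 lipases, transfer proteins and their regulators, 2 fell. Lmf1, which matures lipases, had values of 29.8 to 37.1 CPM in vehicle and 21.0 to 25.2 CPM in treated livers, with treated liver 1 in line below the vehicle range. It was the only called gene of the 5 lists whose groups did not overlap (log2 fold change -0.48 ± 0.09 SE, adjusted p = 0.00716, edgeR). Pltp, which moves phospholipid between particles, went from 33.4 to 61.5 CPM in vehicle livers to 23.3 to 40.5 CPM in treated livers (-0.70, adjusted p = 0.0214). Lcat, which esterifies HDL cholesterol, stood at 394 ± 22.0 and 425 ± 50.2 CPM and was not called.

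Of 8 receptors and exporters, 1 rose. Lsr, the lipolysis-stimulated lipoprotein receptor, rose from 122 ± 11.8 to 188 ± 49.1 CPM (0.63, adjusted p = 0.0274, edgeR), with treated liver 1 (118 CPM) in the vehicle range and the other 4 above it. Lrp1, a remnant receptor, stood at 653 ± 71.9 and 784 ± 182 CPM and was not called.

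Of 12 transcriptional regulators, 2 fell. Hnf4a, a nuclear receptor that drives many hepatocyte genes, stood at 926, 967, 1061, 690.4 and 829 CPM in vehicle livers and at 635, 584, 369, 711 and 431 CPM in treated livers (-0.71 ± 0.20 SE, adjusted p = 0.0269, edgeR). Treated liver 4 lay above vehicle liver 4, so the groups overlapped by 1 pair. Ppargc1a, a coactivator of oxidative and fasting genes, went from 5.35 ± 0.976 to 2.85 ± 1.65 CPM (-0.92, adjusted p = 0.0492), and its log2 fold change was -1.34 without halofuginone replicate 1 (adjusted p = 0.00033, edgeR). Creb3l3, a membrane-bound activator of apolipoprotein genes, stood at 265 ± 15.7 and 286 ± 29.0 CPM and was not called.

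The count of 6 called partner genes moved with single livers, as did the count over all genes. It was 20 of 47 (3 higher, 17 lower) without halofuginone replicate 1, beside 5312 of all 12422 genes tested. Without any other one liver it was 1 to 5, beside 1275 to 1921 of all genes. It was lowest without vehicle replicate 2 or halofuginone replicate 3, where Lmf1 alone was left. Lmf1 was called in each of those 10 fits. The calls of Sar1b and Ppargc1a each held in 1 of them, the one without halofuginone replicate 1, that of Lsr in 3, that of Hnf4a in 5 and that of Pltp in 7.

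**Figure D4:**
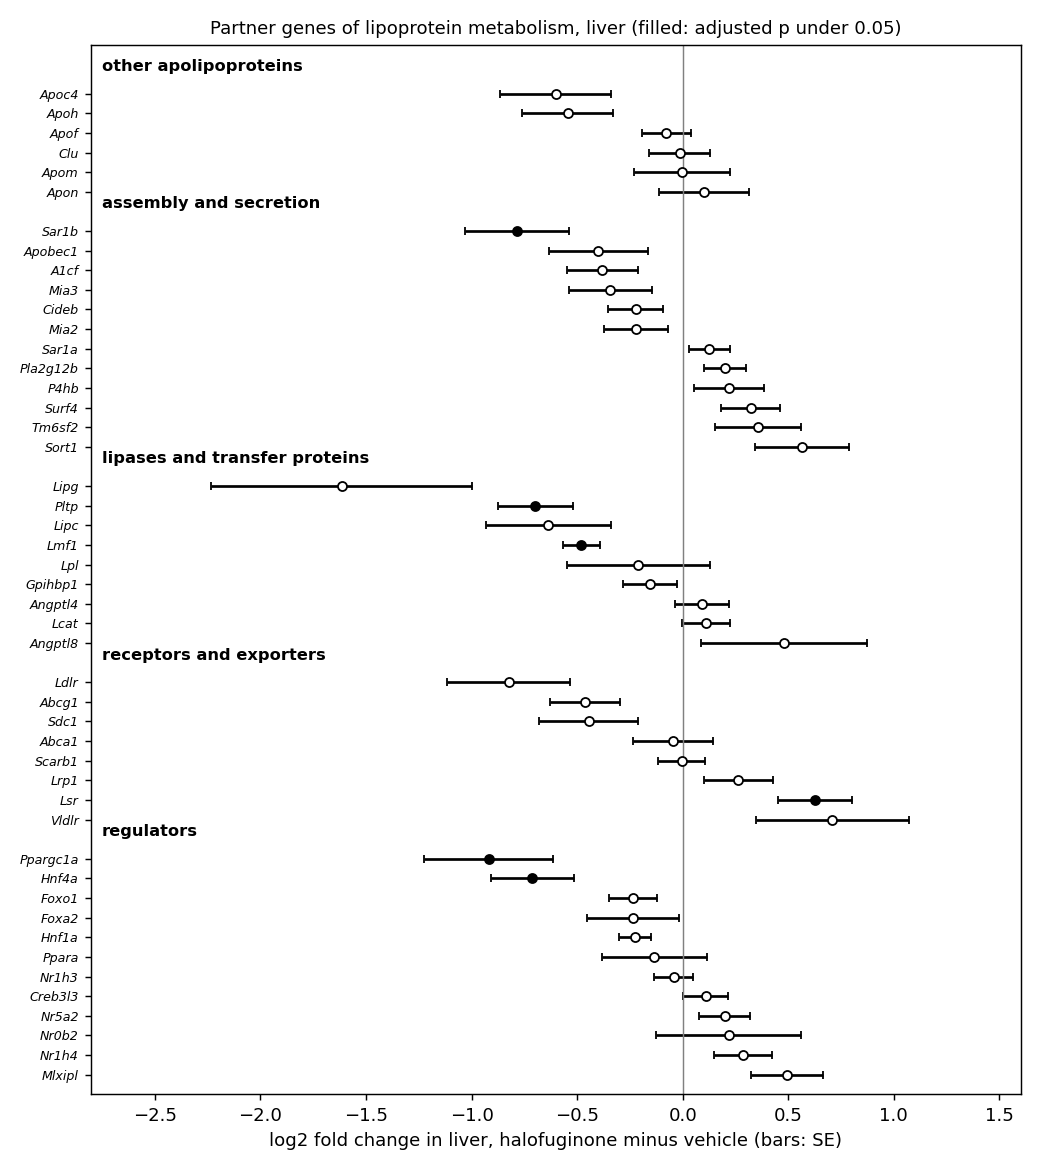
Log2 fold change in liver (halofuginone minus vehicle, bars are standard errors) of the 47 tested partner genes in 5 lists by role; filled symbols have an adjusted p under 0.05. The filled symbols are Sar1b, Pltp, Lmf1, Ppargc1a and Hnf4a on the lower side and Lsr on the higher side.

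In white fat 5 of the 10 members passed the filter on low counts, Apoe, Apoc1, Apoc2, Apoc3 and Mttp. Of these 0 were called by edgeR, 0 reached an unadjusted p under 0.05 and DESeq2 called 0 of the 4 to which it gave an adjusted p (all but Apoc3). Across the table edgeR called 0 of 14030 genes (0%), with 1881 at an unadjusted p under 0.05, and DESeq2 called 671. The plot of fat counts shows how unequal the members' levels are.

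Apoe stood at 6221, 7125 and 5829 CPM in vehicle fat and at 6882, 5111 and 6532 CPM in treated fat. The groups overlapped, with a log2 fold change of -0.05 ± 0.21 (SE; adjusted p = 0.945, edgeR). Apoe made up 98.0% ± 0.477 (SD, n = 3) of the summed FPKM of the 10 genes in vehicle fat and 97.9% ± 0.168 in treated fat. Macrophages also make APOE, and macrophage markers summed to 4004 to 8686 CPM in vehicle fat and 2696 to 2994 CPM in treated fat, with 0 of 5 tested markers called. Their part in the level of Apoe was not tested.

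Apoc1, the second member by level, stood at 40.5, 50.6 and 22.9 CPM and at 41.8, 29.2 and 42.3 CPM, with overlapping groups. Its log2 fold change was -0.01 ± 0.31 (SE; adjusted p = 0.995, edgeR). Mttp was low, at 3.96, 3.99 and 3.87 CPM in vehicle and 5.10, 4.97 and 5.26 CPM in treated fat. All 3 treated values lay above all 3 vehicle values, an arrangement in either direction that 20.6% of all genes showed, and its adjusted p was 0.550 (log2 fold change 0.37 ± 0.24 SE, edgeR). Apoc2 had 25, 33 and 33 counts in vehicle and 30, 39 and 84 counts in treated fat, so treated replicate 3 alone stood above the rest (log2 fold change 0.60 ± 0.48 SE, adjusted p = 0.644, edgeR). Apoc3 had 3 to 12 counts per library in both groups.

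The remaining 5 members did not pass the filter. The floor of detection, 3 counts, is 0.140 to 0.176 CPM in fat. Apoa5 had a count of 0 in all 6 libraries. Apoa2 had 0 to 4 counts. Apoa4 had 13, 7 and 67 counts in vehicle fat and 0, 1 and 2 in treated fat, Apob had 6, 1 and 30 against 2, 0 and 0, and Apoa1 had 11, 2 and 32 against 7, 2 and 4. Vehicle replicate 3 was the highest library for all 3 of these genes. Hepatocyte markers summed to 3.66 to 4.39 CPM in vehicle fat and 6.51 to 8.94 CPM in treated fat, with Fgb and Cps1 at no more than 3 counts. Enterocyte markers summed to 0.697 to 8.71 CPM over the 6 libraries, with Fabp2 and Sis at no more than 3 counts and Vil1 the largest part (0.651 to 8.43 CPM). Alpi, Lct and Cdh17 were, like Apoa4, Apob and Apoa1, highest in vehicle replicate 3. Vil1 and the summed list were instead highest in vehicle replicate 2, at 8.43 and 8.71 CPM, against 2.19 and 4.56 CPM in vehicle replicate 3. Alpi stood at 0.420, 0 and 1.44 CPM in vehicle fat and at 0 in all 3 treated libraries. Lct stood at 0.111 to 0.289 CPM against 0.0465 to 0.0566 CPM, and Cdh17 at 0, 0.166 and 0.404 CPM against 0 to 0.0566 CPM. The part of such cells in the members' counts was not tested. DESeq2 and a single fit of all 16 libraries, under which Apoa4 passed the filter, each called it lower.

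**Figure D5:**
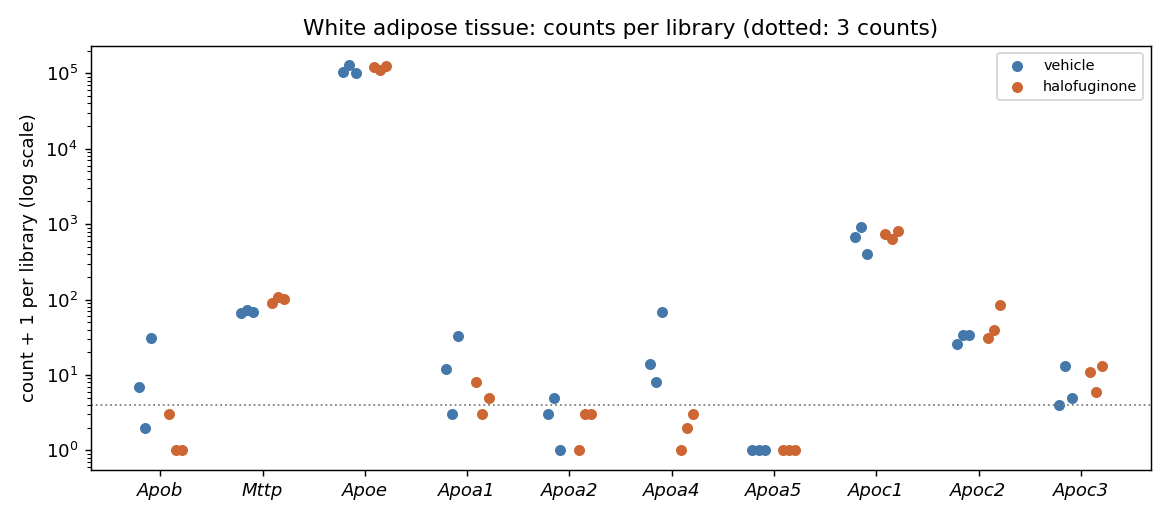
Counts plus 1 of the 10 members in the 6 white fat libraries on a log axis, with a dotted line at 3 counts; each point is a library. Apoe lies between 100986 and 128437 counts, Apoc1 between 397 and 912, and Apoa5 at 0 counts throughout.

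Of the partner genes 35 were tested in fat by edgeR and 0 were called. In edgeR 10 had an unadjusted p under 0.05, beside 1881 of all 14030 genes. DESeq2 called 3 of 47 partner genes, beside 671 of all 18532 genes. Of the genes with at least 5 CPM, the 2 with the smallest p in each list are given by value. Apod, a lipocalin apolipoprotein, stood at 14.4, 29.2 and 28.5 CPM in vehicle and 58.5, 80.7 and 74.7 CPM in treated fat (log2 fold change 1.57 ± 0.30 SE, adjusted p = 0.156, edgeR), and Clu at 86.6 ± 29.1 and 142 ± 32.5 CPM (SD, n = 3). Pltp stood at 822, 839.6 and 835 CPM and at 546, 475 and 461 CPM (-0.75 ± 0.15 SE, adjusted p = 0.159). Lpl, the lipase that APOC2 activates, stood at 7394, 4039.9 and 7474 CPM and at 4049, 3804 and 1662 CPM (adjusted p = 0.360), with overlapping groups.

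Sdc1, a heparan sulfate proteoglycan that binds remnants, stood at 137 ± 47.8 and 58.0 ± 20.8 CPM (SD, n = 3), and Abcg1, a cholesterol exporter, at 211 ± 34.3 and 329 ± 59.7 CPM. Sort1, a sorting receptor for APOB, stood at 535 ± 86.9 and 389.7 ± 81.5 CPM, and Apobec1, the Apob RNA editing enzyme, at 127 ± 56.3 and 78.3 ± 19.1 CPM. Among regulators, Mlxipl, a factor that responds to carbohydrate, stood at 11.6 ± 4.84 and 23.8 ± 7.91 CPM and Hnf4a at 5.46 ± 5.95 and 1.79 ± 3.05 CPM. By library, Hnf4a held 0.120, 11.9 and 4.39 CPM in vehicle and 0.0566, 0 and 5.31 CPM in treated fat (unadjusted p = 0.412, edgeR). Some regulators under 5 CPM had a smaller unadjusted p in edgeR, among them Ppara (0.0482).

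A joint model of the 16 libraries compared the response of fat with that of liver, as the fat log2 fold change minus the liver one. Over all genes 141 of 14853 (0.949%) were called, and 0 members were. Among the 5 members tested in both tissues, the difference was 1.76 ± 0.45 for Apoc2 (SE; adjusted p = 0.0725, edgeR), 0.65 ± 0.23 for Mttp (adjusted p = 0.181), 0.93 ± 0.52 for Apoc3, 0.57 ± 0.37 for Apoc1 and 0.46 ± 0.34 for Apoe. Each of these 5 was above 0. The joint fit tested all 10 members, and 7 differences were above 0 and 3 below, where 53.1% of all genes were below 0. Those above included Apoa2 (0.23 ± 1.63 SE) and Apoa5 (0.04 ± 44.9 SE). Neither passed the filter in fat, where Apoa5 had a count of 0 in every library. Those below were Apoa4 (-3.70, adjusted p = 0.120, edgeR), Apob (-3.60, adjusted p = 0.132) and Apoa1 (-0.77). All 3 had low counts in fat and did not pass the filter there. The fit treats all libraries as independent. DESeq2 called Apoc2 above 0 and Apoa4 and Apob below 0 in this contrast, although the last 2 were filtered out of the fat fit. In edgeR, Apob was called below 0 when fat vehicle replicate 2 was left out. Without liver halofuginone replicate 1, Apoc2 (adjusted p = 0.0271) and Mttp (adjusted p = 0.0326) passed the threshold in edgeR's test.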

How the data were processed

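Poly(A)-selected RNA of 10 liver and 6 white fat libraries was sequenced. Per the submitters' processing notes, fastp 0.18.0, Bowtie2 2.2.8, HISAT2, StringTie 1.3.1, RSEM and the build mm39 were used; their order, the strand and any batch are not given in the sources used here. The authors deposited estimated counts per gene as whole numbers, and FPKM (fragments scaled by gene length and depth) beside them, per the file headers. 22267 of 22322 identifiers had a symbol. Libraries were grouped by title, and 0 value columns were left unmapped.

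Each tissue was fitted alone over all genes by the two-sided quasi-likelihood test of edgeR 4.0.16 (R 4.3.3; filterByExpr, TMM, glmQLFit, glmQLFTest, Benjamini-Hochberg). Calls are genes with adjusted p under 0.05, and only called genes are said to rise or fall. The SE is the absolute log2 fold change over the square root of F. The steps were tested on simulated data. Ratios and levels between genes used FPKM. The members and lists were chosen with earlier results of these data known. Some partner genes are not reported here. Named genes were all members; per partner list in liver, up to 4 called genes with at least 5 CPM and the largest fold changes and the most abundant uncalled 1; in fat, the 2 with the smallest p and at least 5 CPM; and the 3 genes most like Apoc2 and Apoa4. Alternatives were DESeq2 1.42.0, its size factors, library size alone, other filters, a replicate block, robust dispersion, 1 fit of all libraries, limma 3.58.1 on log2 FPKM (pseudocount 1 or 0.1) and leaving out each library. No 2 libraries of a group were alike within sampling noise (smallest chi-square per degree of freedom 29.7 in liver, 50.5 in fat). Floors cover counting error only.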

Additional observations from a re-analysis of the deposited data

Results flagged for a closer look

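Of 66 groups of 5 livers examined for a library far from the others, about 3.3 would be picked out by chance, and 4 were. In vehicle liver 4 the Apoa4 to Apoa1 ratio of FPKM was 0.283, with the next vehicle liver at 0.157, a gap of 0.764 of the group's range. In the same liver Apoc2 made up 1.17% of the members' summed FPKM, with the next at 0.840%. In halofuginone liver 1 Sar1b stood at 155 CPM, with the next treated liver at 81.2 CPM, and Ppargc1a at 5.71 CPM, with the next at 2.82 CPM.

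In the contrast between tissues 1 of the 48 partner genes was called, beside 0.949% of all genes. This was Creb3l3, whose fat minus liver difference of log2 fold changes was -1.18 ± 0.24 (SE, adjusted p = 0.0330, edgeR over all genes). It stood at 1.16 ± 0.278 and 0.551 ± 0.0749 CPM in vehicle and treated fat (SD, n = 3), with all 3 treated values below all vehicle ones, and at 265 ± 15.7 and 286 ± 29.0 CPM in liver (n = 5). Leaving out 1 library gave adjusted p-values of 0.00972 to 0.136. Over all alternative fits of the contrast the call was kept in 9 and lost in 13. Neither tissue fitted alone called Creb3l3 (adjusted p = 0.382 in fat and 0.474 in liver, edgeR).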

How the results depend on the processing

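The liver count of 5 called members was 8 with DESeq2, 2 with all libraries in 1 fit, 1 with limma on unfiltered FPKM and 1 to 9 with 1 library left out. For the 6 partner genes these were 11, 3, 5 and 1 to 20, and 10 with library size alone. In fat, members called were 1 and partners 3 with DESeq2, and 1 and 2 with all libraries in 1 fit. In the contrast between tissues DESeq2 called 3 members, and 0 to 2 were called with 1 library left out. Over all genes, leaving out 1 library gave 1275 to 5312 calls in liver and 34 to 1053 in the contrast, the upper ends without liver halofuginone replicate 1. In liver the main fit called 2850 of 12311 genes, DESeq2 3623 of 16566 and library size alone 3627 of 12311. There, 1 fit of all libraries called 2193 of 14853 and limma on unfiltered FPKM 2354 of 16587. DESeq2 gave 671 in fat and 685 in the contrast, and 1 fit of all libraries gave 334 in fat.

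Signs turned for 3 members near 0. The log2 fold change of Apoa5 in liver was 0.10 with library size alone, 0.044 with each of 3 limma fits and -0.17 to 0.022 with 1 library left out. In fat, Apoc1 was 0.0011 with DESeq2, 0.045 with library size alone, 0.044 with the replicate block, 0.11 with each limma fit and -0.27 to 0.25 with 1 library left out, and Apoe was 0.013 with library size alone, 0.0093 with each limma fit, and -0.13 to 0.11 with 1 library left out. The cause was not tested. The other member log2 fold changes that were followed kept their direction under the alternatives run. For members that did not pass the filter in fat, the direction in fat and in the contrast was not followed.

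Pairing of vehicle with treated libraries by equal replicate number was not evident, though so few libraries cannot exclude it. Correlations of same-numbered deviations were -0.18 to 0.10 in liver and -0.59 to 0.16 in fat. Of the vehicle libraries, 1 of 5 livers and 0 of 3 fat libraries correlated best with their own number. The replicate block gave 4 called members in liver (Apoc1 lost, adjusted p = 0.0543, edgeR), 5 partners, and 1901 genes in place of 2850; in the contrast it gave 20 in place of 141.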

Other observations

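The implied effective length of Apob, its count divided by its FPKM, differed 1.33-fold between livers, against 1.10-fold for Apoa5 and at most 1.01-fold for the others, so the FPKM of Apob moves with more than its count.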
